A study of Mus musculus with 18 samples.

Results

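Ucn3 and Iapp encode peptide hormones that mature mouse beta cells release together with insulin. They are 2 of the 18118 gene symbols in the deposited expression table and were taken by symbol, 1 value per array for each, and both were bright enough to be tested. Expression was measured on 18 mouse beadchip arrays in 6 groups of 3. Induced beta cells were taken 10, 30 or 60 days or 7 months after induction, and they were set against endogenous beta cells and acinar cells, which make the digestive enzymes. All groups came from the pancreas of Rag1-/- mice, which lack a gene needed to form T and B cells. Per the labels' protocols, purified adenovirus was put into the dorsal pancreas (splenic lobe), the endogenous islets were taken out, the acinar fraction was dissociated, and Cherry+ induced cells were sorted by fluorescence. The genes carried by the virus are not named in the labels, and no age or sex is given for the mice. The labels do not state whether arrays of 1 group stand for different mice, so each p-value reflects spread among arrays that could be technical.

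Urocortin 3, the product of Ucn3, belongs to the corticotropin-releasing factor family. In the mouse islet it acts on the receptor CRHR2 of neighbouring delta cells and promotes release of somatostatin, which restrains insulin secretion. It appears late in beta cell development and is widely used as a sign of maturity. Amylin, the product of Iapp, belongs to the calcitonin family, is packed into the insulin granule and acts on the calcitonin receptor joined to a receptor activity-modifying protein (RAMP).

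The stretches before the start of both genes are shown because the question is whether genes that came up in the same samples did so together. Each is the 250 bases before the annotated start in RefSeq's GRCm38.p6, read 5′ to 3′ on the gene's strand, at chr13:3945350-3945599 on the minus strand for Ucn3 and at chr6:142298175-142298424 on the plus strand for Iapp. Capitals mark TAAT on either strand, the core read by homeodomain factors such as Pdx1 and Nkx6-1.
Ucn3: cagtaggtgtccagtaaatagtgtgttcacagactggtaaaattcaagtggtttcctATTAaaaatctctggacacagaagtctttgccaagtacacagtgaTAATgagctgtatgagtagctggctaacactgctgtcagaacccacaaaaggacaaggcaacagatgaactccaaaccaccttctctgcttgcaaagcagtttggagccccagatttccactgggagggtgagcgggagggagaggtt
Iapp: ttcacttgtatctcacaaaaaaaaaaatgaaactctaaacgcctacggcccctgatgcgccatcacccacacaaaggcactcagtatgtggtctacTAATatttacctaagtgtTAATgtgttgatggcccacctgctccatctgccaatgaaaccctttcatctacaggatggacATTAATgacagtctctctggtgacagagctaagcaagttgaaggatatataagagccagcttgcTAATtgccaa
TAAT stood at 2 places in the Ucn3 window and at 5 in the Iapp window, where the run ATTAAT holds overlapping matches on both strands. Of 32851 windows of the same length, 54.9% held it at least once, 30.8% at 2 or more places and 5.54% at 5 or more. CANNTG, the E-box read by factors such as Neurod1, stood at 2 places before Ucn3 and at 3 before Iapp. Of all windows 66.2% held at least 1 copy, 31.8% held it at 2 or more places and 12.2% at 3 or more. For the core promoter motif only the exact letters TATAAA were searched. They were found on neither strand of these windows, and 12.4% of all windows held them. Variants of the motif were not searched, and the Iapp window holds the near run tatataag. TGCTGA is the core of a Maf recognition element, and it was likewise not found, against 16.1% of all windows that held it. Each match is a run of letters and was not tested as a site.

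Between 5990 and 7745 symbols were detected on an array, and 8942 genes were tested. Of the acinar markers 10 of 10 were measured on every acinar array, and of the beta cell markers 6 of 6 on every beta cell array. The endogenous beta cell arrays also carried hormones of the other islet cells, with a mean log2 intensity of 14.56 for Gcg (glucagon), 14.22 for Sst (somatostatin) and 12.43 for Ppy (pancreatic polypeptide). Signals above the negative controls summed there to 50419 to 51500 for markers of those cells and to 58925 to 61084 for beta cell markers, so markers of other islet cells were high on the arrays that every beta cell comparison below uses. Acinar arrays carried such hormones too, with means of 12.02 for Gcg, 9.90 for Sst and 8.12 for Ppy. Of the 6 beta cell markers, 1 was measured on all 3 acinar arrays. The late induced arrays were not independent of each other. Day 60 and 7-month arrays of the same replicate number differed by an SD of only 0.0905 to 0.101 in log2 signal over 2238 bright genes. Arrays within day 60 differed by 0.280 to 0.322, arrays within 7 months by 0.280 to 0.326, and arrays within the other 4 groups by 0.0749 to 0.124. No gene was called between 7 months and day 60 by limma (0 of 8942, with 201 at an unadjusted p under 0.05). The within-array comparison that rests on these arrays is also given without the 7-month or without the day 60 arrays.

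The scaling of whole arrays moved the balance of calls. Of all calls at day 30 over day 10, 50.8% were higher after quantile normalization, 68.5% after scaling by the median and 84.2% on the authors' unnormalized values, and of those at day 60 over day 30, 48.9%, 39% and 31.7%. Against beta cells the shares were 47.6%, 36.3% and 34.9% at day 10, 46.4%, 40.7% and 48.7% at day 30, 44.5%, 32.8% and 36% at day 60, and 44.6%, 29.8% and 31.1% at 7 months. They were 49.4%, 32.7% and 22.4% for 7 months over day 30. Against acinar cells quantile normalization gave 48.6% to 53%, median scaling 70.5% to 81.1% and the unnormalized values 85.5% to 93.6%. The median of all tested genes moved with them, to 0.18 and 0.26 at day 30 over day 10 and to −0.12 and −0.15 at day 60 over day 30. A direction that turned with the scaling is given beside the gene.

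Ucn3 was near the background in acinar cells, came up between day 10 and day 30 and then lay close to endogenous beta cells, without a call from day 30 on in the main setting. It was called lower at day 30 in 6 other settings, and lower at every time from day 30 on after median scaling and on the unnormalized values. Its deposited signals were 108, 114 and 123 at day 10, and 1343, 1207 and 1282 at day 30. At day 60 they were 1349, 1331 and 1163, and at 7 months 1096, 1227 and 1102. Endogenous beta cells gave 1437, 1465 and 1573, while acinar cells gave 60.2, 52.2 and 55.1 with detection p-values of 0.0664, 0.288 and 0.303, so that Ucn3 was measured on 0 of 3 acinar arrays. Day 10 arrays lay far below all later induced arrays without overlap. Above the mean of the negative controls, the mean signal was 3.56% of that in beta cells at day 10, 84.5% at day 30, 85.0% at day 60 and 75.4% at 7 months. In sorted bulk samples fewer cells of a type and less RNA per cell cannot be told apart.

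After background correction and quantile normalization, Ucn3 averaged 6.32 ± 0.17 at day 10, 9.76 ± 0.09 at day 30, 10.14 ± 0.18 at day 60, 10.13 ± 0.18 at 7 months, 10.03 ± 0.05 in endogenous beta cells and 4.80 ± 0.31 in acinar cells (log2 intensity, SD, n = 3 each). The level changed over the 4 induced times (limma's F-test, adjusted p = 4.2e-12, called for 83.8% of all tested genes). The rise at day 30 over day 10 was 3.45 ± 0.14 (log2, SE), or 10.9-fold (limma, adjusted p = 1.25e-10), in a comparison where 61.2% of genes were called. Its size depended on the background correction and scaling, at 2.47 with limma's own estimate of the negative controls and 3.97 with median scaling. Only 1 tested gene rose more there. Day 60 exceeded day 30 by a further 0.38 ± 0.14, or 1.30-fold (limma, adjusted p = 0.028, with 61.9% of genes called). This step was not called after median scaling (0.044) or on the authors' unnormalized values (0.0022), and it lost the call when any 1 of 4 arrays was left out.

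Against endogenous beta cells, Ucn3 was 13.1-fold lower at day 10 (−3.71 ± 0.14, limma, adjusted p = 1.0e-12, with 80% of genes called), a difference of −2.76 with limma's own estimate of the controls and −4.27 with median scaling. At day 30 the difference was −0.27 ± 0.14, with a 95% interval of −0.56 to 0.03, and missed the threshold (limma, adjusted p = 0.097, with 74.3% of genes called), while all 3 day 30 arrays lay below the beta cell arrays and 6 of the other settings tried made the call. That SE rests on 1 spread shared by all 6 groups, among them acinar arrays where Ucn3 was not measured. With only both groups in the model the adjusted p was 0.0021 (limma). At day 60 the difference in the main setting was 0.11 ± 0.14 (interval −0.18 to 0.41, adjusted p = 0.47, with 77.7% called) and at 7 months 0.10 ± 0.14 (interval −0.20 to 0.40, adjusted p = 0.52, with 77.9% called), both by limma and with overlapping arrays. The direction of these late differences depended on the scaling: median scaling gave −0.25 at day 60 and −0.38 at 7 months, both called, the unnormalized values gave −0.22 and −0.39, both called, and median scaling moved the median of all tested genes to −0.35 and −0.43 in the same comparisons. Relative to that median Ucn3 then stood at 0.10 and 0.05, against 0.21 and 0.20 with quantile normalization.

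**Figure D1:**
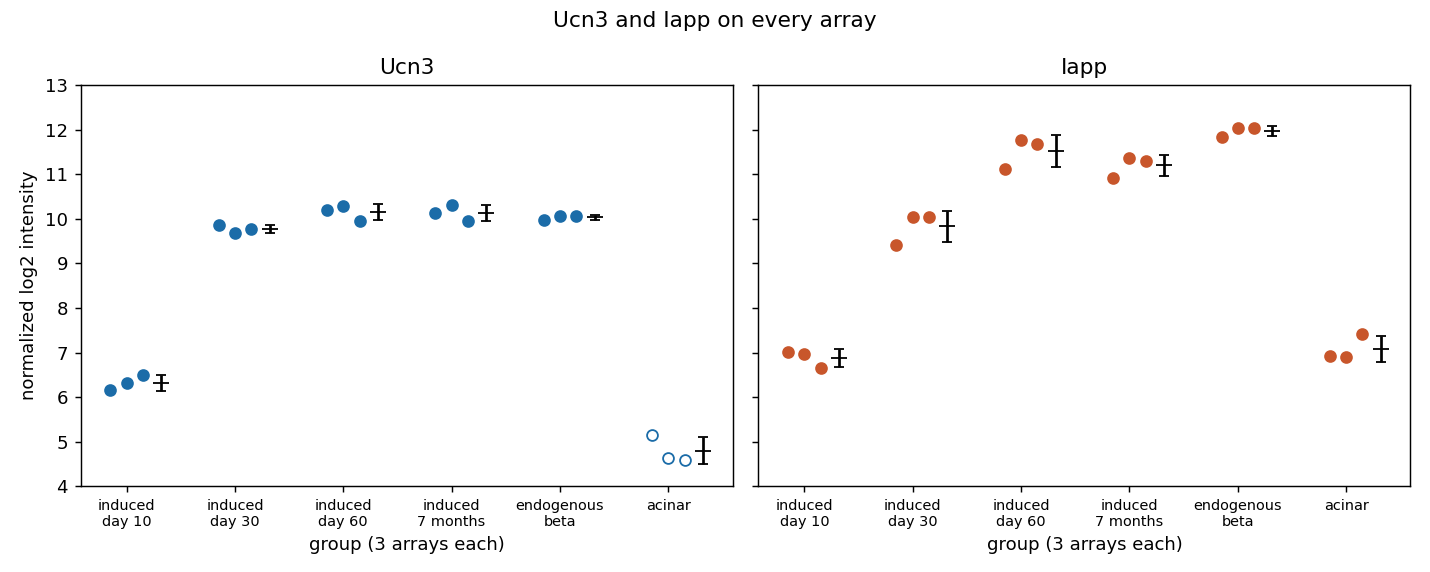
Normalized log2 intensity of Ucn3 (left) and Iapp (right) on each of the 18 arrays, with each group's mean and SD beside its 3 points; hollow points are arrays on which the gene was not measured above background. Ucn3 reaches 9.76 at day 30 and stays near 10, while Iapp is at 9.83 at day 30 and 11.52 at day 60, below the 11.97 of endogenous beta cells.

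In order of level, day 60, 7 months, endogenous beta cells and day 30 followed one another without a call between neighbours for Ucn3, and each step below them was called. Day 30 exceeded day 10, and day 10 exceeded acinar cells by at least 1.38-fold (limma, adjusted p = 5.0e-08, with 79.7% of genes called). Against the same acinar arrays the bound was at least 15.1-fold at day 30, at least 19.6-fold at day 60, at least 19.5-fold at 7 months and at least 18.1-fold in endogenous beta cells. The lead of day 10 over acinar cells was not called with limma's own estimate of the negative controls (0.19, adjusted p = 0.087). These bounds hold for the main background correction, since under that estimate the fitted differences from acinar cells were smaller, at 2.66 at day 30, 3.07 at day 60, 3.06 at 7 months and 2.95 in beta cells (log2).

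Iapp showed no call against acinar cells at day 10 except on the unnormalized values, rose at day 30 and rose again at day 60, and every induced array lay below endogenous beta cells. Its deposited signals were 157, 152 and 131 at day 10, 986, 1519 and 1530 at day 30, 2372, 3367 and 3442 at day 60, and 1823, 2433 and 2626 at 7 months. They were 4504, 4926 and 5178 in endogenous beta cells and 95.1, 89.4 and 130 in acinar cells, where Iapp was measured on 3 of 3 arrays. All 12 induced arrays lay below all 3 beta cell arrays, and 1 array at each of the last 3 induced times was clearly lower than the other two. The mean signal above the negative controls was 1.73% of that in beta cells at day 10, 26.6% at day 30, 62.3% at day 60 and 46.4% at 7 months, and 1.10% in acinar cells.

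Normalized Iapp averaged 6.88 ± 0.20 at day 10, 9.83 ± 0.36 at day 30, 11.52 ± 0.36 at day 60, 11.19 ± 0.24 at 7 months, 11.97 ± 0.12 in endogenous beta cells and 7.08 ± 0.29 in acinar cells (log2 intensity, SD, n = 3 each). The F-test over the induced times gave an adjusted p of 4.4e-11 (limma). Day 10 and acinar arrays overlapped, with a difference of −0.20 ± 0.20 (interval −0.64 to 0.23, limma, adjusted p = 0.37). That sign turned with the scaling, to 0.34 after median scaling and to 0.50 on the unnormalized values, where it was called, while the median of all tested genes moved to 0.44 and 0.60. Day 30 exceeded day 10 by 2.95 ± 0.20, or 7.72-fold (limma, adjusted p = 2.0e-08), and 3 tested genes rose more. Day 60 exceeded day 30 by 1.69 ± 0.20, or 3.24-fold (limma, adjusted p = 3.8e-06), a step larger than that of 98.6% of tested genes.

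Relative to endogenous beta cells, Iapp was 34.0-fold lower at day 10 (−5.09 ± 0.20, limma, adjusted p = 2.4e-12) and 4.41-fold lower at day 30 (−2.14 ± 0.20, limma, adjusted p = 1.1e-07). At day 60 the difference was −0.45 ± 0.20 (interval −0.88 to −0.01) and just missed the threshold (limma, adjusted p = 0.058), and it passed under 6 of the other settings tried. At 7 months Iapp was 1.71-fold lower (−0.77 ± 0.20, limma, adjusted p = 0.0029). In order of level, endogenous beta cells and day 60, day 60 and 7 months, and acinar cells and day 10 were neighbours without a call, and 7 months exceeded day 30 by 1.37 ± 0.20 (limma, adjusted p = 3.2e-05, with 62.3% of genes called). Iapp exceeded acinar cells by 2.74 ± 0.20 at day 30, 4.44 ± 0.20 at day 60, 4.11 ± 0.20 at 7 months and 4.88 ± 0.20 in endogenous beta cells, all called by limma, in comparisons with 79.3%, 77%, 77.6% and 79.4% of genes called. With median scaling the last 3 differences were 5.06, 4.69 and 5.78, and that at day 30 was 3.799.

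**Figure D2:**
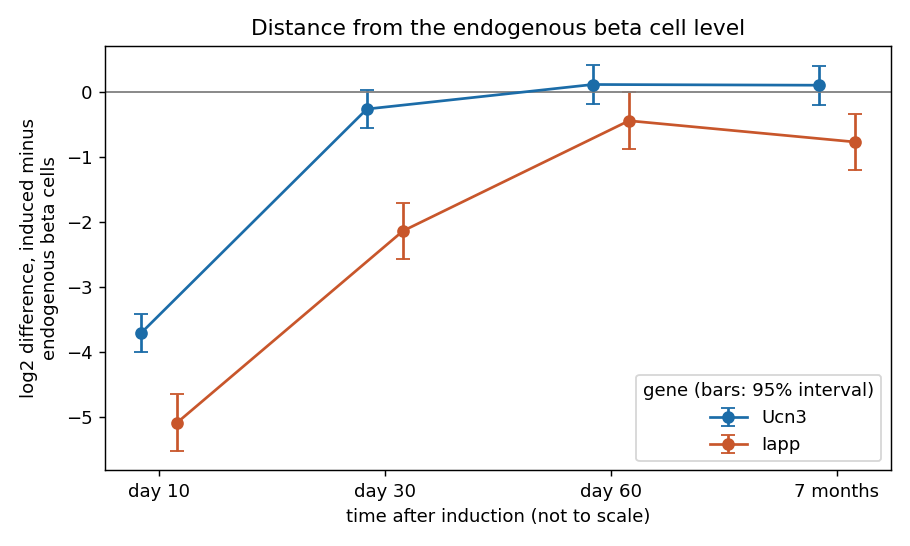
Log2 difference of induced cells minus endogenous beta cells for Ucn3 and Iapp at each induced time, with 95% intervals from limma (n = 3 arrays per group), after quantile normalization; the time axis is not to scale. The Ucn3 interval includes 0 from day 30 on, while Iapp is at −2.14 at day 30 and −0.45 at day 60.

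The timing of both genes was compared within arrays, as log2 Ucn3 minus log2 Iapp on the same array, so that a shift common to an array cancels. The absolute value of that difference has no meaning between 2 probes, and only its change between groups was used. It was −0.86, −0.66 and −0.16 at day 10, 0.44, −0.36 and −0.27 at day 30, −0.91, −1.49 and −1.74 at day 60, and −0.79, −1.06 and −1.35 at 7 months. Endogenous beta cells gave −1.86, −1.98 and −1.97. It was thus highest at day 30, with no overlap with day 60, 7 months or beta cells. It varied over the 4 induced times (F = 6.92, exact permutation test over 369600 assignments of 12 arrays, p = 0.0084). Without the 7-month arrays the exact p was 0.018, and without the day 60 arrays 0.029.

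Between day 10 and day 30 the change of Ucn3 exceeded that of Iapp by 0.50 (3.45 against 2.95), a difference that was not distinguished from 0 (exact permutation test, two-sided, p = 0.30). It lay between 0.073 and 0.51 over 9 settings that left out no single array, and between 0.25 and 0.70 with 1 array left out. Between day 30 and day 60 the change of Ucn3 fell short of that of Iapp by 1.32 (0.38 against 1.69), the smallest p that 3 arrays against 3 allow (exact permutation test, two-sided, p = 0.10, 0.14 adjusted over 10 pairs). Relative to endogenous beta cells Ucn3 stood above Iapp by 1.38 at day 10, 1.87 at day 30, 0.56 at day 60 and 0.87 at 7 months, each at that same smallest p of 0.10. The day 10 value lay between 1.17 and 1.95 over 9 settings that left out no single array. No pair of groups could pass the threshold in this design. The day 30 to day 60 difference lay between −1.43 and −1.19 over the 8 settings that give it and left out no single array. With 1 array left out it lay between −1.56 and −1.06.

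Iapp also differed from most genes between the paired late arrays. Its deposited 7-month signal was 0.38, 0.47 and 0.39 below that of the day 60 array of the same number (log2), with −0.38, −0.47 and −0.39 set against medians of −0.21, −0.12 and −0.07 over 2198 bright genes. Only 4.87%, 0.0455% and 0.318% of those genes were lower. Ucn3 had −0.30, −0.12 and −0.08, with 15.9%, 51.5% and 48.9% of genes lower, and thus lay near the median in replicates 2 and 3 and below it in replicate 1. Against the spread of the late arrays neither difference passed: it was −0.33 ± 0.20 for Iapp and −0.01 ± 0.14 for Ucn3 (limma, adjusted p = 1.0 for both, 0% of genes called), and with the replicate number as a block within these 6 arrays the adjusted p was 0.74 and 0.99. Both genes belong to 27 whose 7-month signals alone were deposited with up to 10 digits, against at most 7 elsewhere. Ins1, Ins2, Chga, Pcsk2 and Nkx6-1 are others of the 27. The mean 7-month minus day 60 difference was −0.41 for Iapp and lay between −0.21 and 0.13 for the other 26. How these values came to carry more digits was not tested.

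**Figure D3:**
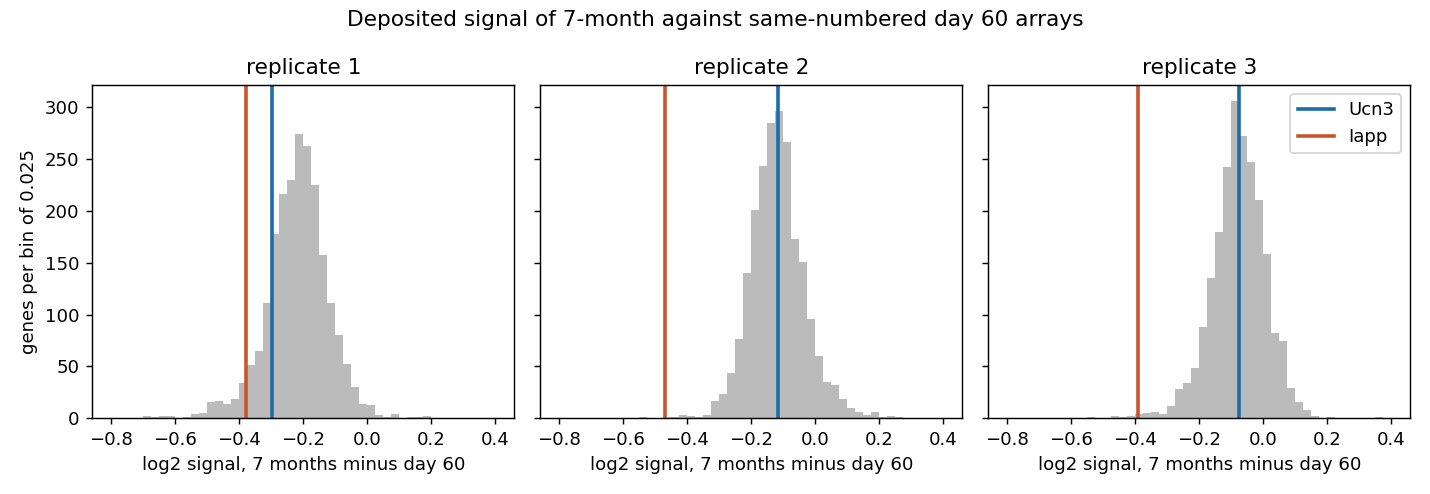
Number of bright genes (grey, bins of 0.025) by their log2 signal at 7 months minus that at day 60, for the arrays of replicate 1, 2 and 3, with Ucn3 (blue) and Iapp (orange) as lines. Ucn3 is below most genes for replicate 1 (−0.30) and near the middle for replicates 2 and 3 (−0.12 and −0.08), and Iapp is on the low side, at −0.38, −0.47 and −0.39.

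Few relatives or receptors of urocortin 3 were measured. Crh and Ucn, related ligands, Crhr2, its receptor, and Crhbp, which encodes a binding protein for the family, were detected on 0 of 18 arrays. Here and below, a gene undetected on all arrays can be absent or have a probe that failed, which these data cannot tell apart. Crhr1, the receptor for corticotropin-releasing factor, was measured on 3 of 3 day 60 arrays, 2 of 3 at 7 months and 1 of 3 at day 30, and on none of the day 10, endogenous beta cell or acinar arrays. Its mean log2 intensity of 5.06 at day 60 lay close to the background.

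Of 10 calcitonin family and receptor genes, 6 were tested, and 2 of them rose, 2 fell and 2 were not called at day 30 over day 10 (median −0.09, against 0.01 over all genes), where 31.1% of all genes rose and 30.1% fell. Calcr, the calcitonin receptor, and Calcrl, a related receptor, were detected on 0 of 18 arrays. Ramp2 averaged 8.26 ± 0.03 at day 10, 9.43 ± 0.02 at day 30, 9.04 ± 0.28 at day 60, 9.06 ± 0.35 at 7 months, 10.23 ± 0.05 in beta cells and 8.42 ± 0.23 in acinar cells, and rose with Iapp at day 30 (1.18 ± 0.16, limma, adjusted p = 1.2e-05). Ramp1 went the other way: it fell by 1.00 ± 0.23 at day 30 relative to day 10 (limma, adjusted p = 0.0013), was 10.46 ± 0.11 in acinar cells and was not measured on any beta cell array. The excess of Ramp1 over endogenous beta cells was at least 8.97-fold at day 30 and at least 10.9-fold at day 60.

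Calca, which encodes calcitonin and CGRP, fell by 1.05 ± 0.08 between day 10 and day 30 (limma, adjusted p = 2.8e-08). Adm, the gene of the vessel-acting peptide adrenomedullin, averaged 6.69 ± 0.08 at day 10 and 6.95 ± 0.16 at day 30, a gain called with median scaling (0.61) and on the unnormalized values (0.59) but not here, and was 2.82-fold lower at day 60 than at day 30 (limma, adjusted p = 8.7e-06). Adm2, a related peptide gene, was measured on all 3 beta cell arrays and on 1 of the 12 induced arrays, so that it was at least 1.45-fold lower at day 10 and at least 1.82-fold lower at day 30 than in beta cells.

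Both peptides are cut from precursors, and 6 of 8 genes for that processing were tested. At day 30 over day 10, 4 rose and 2 were not called (median 1.11, against 0.01 over all genes, of which 31.1% rose), and against endogenous beta cells 6 of 6 were lower at day 30 (median −1.08, against −0.04, with 39.9% of all genes lower) and 5 of 6 at day 60 (median −1.92, against −0.10, with 43.2% lower). Pcsk2, a convertase that cuts prohormones, averaged 11.73 ± 0.01 at day 10, 12.85 ± 0.02 at day 30, 13.57 ± 0.18 at day 60 and 13.57 ± 0.14 at 7 months, against 13.73 ± 0.05 in beta cells. It was called lower than beta cells at day 30 (−0.88) and higher at day 60 than at day 30 (0.72), and neither call was made with median scaling (−0.21 and 0.12) or on the unnormalized values (−0.15 and 0.081). Its differences from beta cells of −0.17 ± 0.10 at day 60 and at 7 months were not called (limma, adjusted p = 0.15 and 0.16). Sgne1, now named Scg5, the chaperone of that convertase, rose by 1.11 ± 0.07 at day 30 and by a further 0.48 ± 0.07 at day 60, a second step that turned to −0.038 with median scaling and −0.077 on the unnormalized values, and was 0.88 ± 0.07 short of beta cells at 7 months. Pcsk1, the other convertase, was detected on 0 of 18 arrays, the endogenous beta cell arrays among them, which does not show that it was absent.

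Scg2 and Scg3, granins that help form secretory granules, differed in time course and both stayed below beta cells. Scg2 was not measured at day 10 or day 30, was at least 520-fold lower at day 30 than in beta cells, and at day 60 it was still 8.03 ± 0.16 lower on the log2 scale. Scg3 rose by 2.19 ± 0.19 at day 30 over day 10 and was 2.96 ± 0.19 lower than in beta cells at day 60. Pcsk1n, which encodes an inhibitor of a convertase, rose by 1.32 ± 0.14 and then fell by 0.71 ± 0.14 at day 60 relative to day 30. Pam, the enzyme that amidates amylin, was 9.21 ± 0.01 at day 30, where its gain over day 10 (0.26) was called with median scaling (0.56) and on the unnormalized values (0.73) only, and fell by 1.91 ± 0.13 at day 60 (limma, adjusted p = 8.4e-09), while Iapp rose. At day 60 Pam was 2.44 ± 0.13 lower than in endogenous beta cells.

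**Figure D4:**
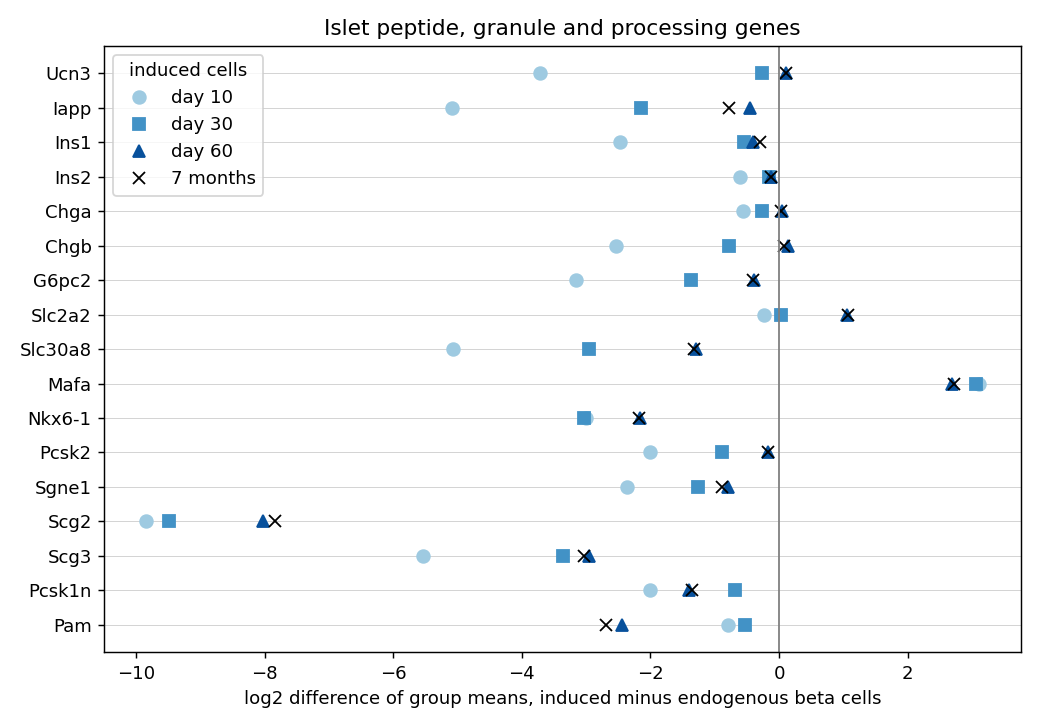
Log2 difference of group means, induced minus endogenous beta cells, for Ucn3, Iapp and islet peptide, granule and processing genes at 4 induced times; Scg2 at day 10 and day 30 and Slc30a8 at day 10 were not measured above background, so their points are fitted values and not sizes. Ucn3 and Chgb lie near 0 from day 60, Iapp and G6pc2 below it, and Pam and Scg2 further below.

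Of 16 genes used as signs of beta cell maturity, Ucn3 and Iapp among them, 14 were tested. Between day 10 and day 30, 8 rose, 1 fell and 5 were not called (median 0.60, against 0.01 over all genes, of which 31.1% rose and 30.1% fell), and between day 30 and day 60, 9 rose, 3 fell and 2 were not called (median 0.60, against −0.0026), where 30.3% of all genes rose and 31.6% fell. Relative to endogenous beta cells, 2 were higher, 9 lower and 3 not called at day 30 (median −0.95, with 34.5% of all genes higher and 39.9% lower). At day 60, 3 were higher, 7 lower and 4 not called (median −0.42, with 34.6% of all genes higher and 43.2% lower). G6pc2, a glucose-6-phosphatase of islets, rose at both steps as Iapp did, by 1.79 ± 0.10 and by 0.98 ± 0.10. Slc30a8, the zinc transporter of insulin granules, was not measured at day 10, was at least 2.44-fold higher at day 30 and rose by a further 1.67 ± 0.13 at day 60.

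Other members kept other times. Slc2a2, the glucose transporter of mouse beta cells, gained 0.25 ± 0.14 between day 10 and day 30, which was called only with median scaling (0.60) and on the unnormalized values (0.72), rose by 1.02 ± 0.14 at day 60 and was then 1.05 ± 0.14 above endogenous beta cells. Nkx6-1, a transcription factor of beta cells, changed by −0.02 ± 0.16 at day 30 (0.33 with median scaling and 0.46 unnormalized, both called), rose by 0.86 ± 0.16 at day 60 and was still 2.17 ± 0.16 lower than in beta cells. Mafa, a factor that activates the insulin gene, was 8.39 ± 0.08 at day 10 and 8.34 ± 0.09 at day 30, against 5.28 ± 0.05 in endogenous beta cells, and was thus 3.11 ± 0.13 and 3.06 ± 0.13 higher in induced cells. That beta cell level lay near the floor of the 3 beta cell arrays (5.13, 5.43 and 5.08), so the size of the excess is uncertain. The Mafa change of −0.05 at day 30 over day 10 was 0.44 and called on the unnormalized values.

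Ins1, Ins2, Chga and Chgb lay nearer to beta cells at day 10 than Ucn3 and Iapp, each gene set against its own beta cell level, and several of their smaller differences changed with the scaling. In beta cells Ins1 averaged 14.69 and Ins2 14.87 with an SD of 0, at the top of the quantile-normalized scale. Differences at that end can be compressed, so a smaller distance cannot be read as an earlier rise than that of Ucn3 or Iapp. Ins2, an insulin gene, was 0.61 ± 0.19 below beta cells at day 10, a call lost with median scaling (0.0070) and on the unnormalized values (−0.17), and not called at day 30 (−0.16 ± 0.19, limma, adjusted p = 0.45). Ins1, the other insulin gene, rose by 1.93 ± 0.09 at day 30 and differed from beta cells by −0.55 ± 0.09 at day 30 and −0.41 ± 0.09 at day 60, neither of them called with median scaling (−0.11 and −0.24) or unnormalized (−0.049 and −0.22). Chga, a granin, was 0.56 ± 0.13 below beta cells at day 10 and not called at day 30 (−0.26 ± 0.13, limma, adjusted p = 0.069), but median scaling turned these to 0.26 and 0.28, both called, and the unnormalized values to 0.085 and 0.33. Chgb, a related granin, rose by 1.75 ± 0.16 and 0.91 ± 0.16 and showed no call against beta cells at day 60 (0.14 ± 0.16, limma, adjusted p = 0.44), except on the unnormalized values, where it was higher (0.25). Of 8 cargo genes, Iapp among them, 8 were lower than in beta cells at day 10 (median −2.50, with 41.9% of all genes lower), 6 at day 30 (median −0.66, with 39.9% of all genes lower) and 4 at day 60 (median −0.43, with 43.2% lower), the last a share near that of all genes.

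Somatostatin is the hormone whose release urocortin 3 promotes in the islet. Sst averaged 10.68 ± 0.04 at day 10, 10.76 ± 0.07 at day 30, 10.24 ± 0.55 at day 60, 10.24 ± 0.61 at 7 months, 14.22 ± 0.12 in endogenous beta cells and 9.90 ± 0.01 in acinar cells. It was thus 3.47 ± 0.25 lower in induced cells at day 30 than in the beta cell arrays and its difference of −0.52 at day 60 from day 30 was called only with median scaling (−0.90) and on the unnormalized values (−0.92). Hhex, a factor of delta cells, rose by 0.67 ± 0.17 between day 10 and day 30. It averaged 6.58 at day 10, 7.25 at day 30, 7.63 at day 60 and at 7 months, and 6.88 in the beta cell arrays. Its highest mean was 8.65 in acinar cells, so its level did not follow that of Sst. The somatostatin receptors Sstr1 to Sstr5 were detected on 0 of 18 arrays.

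Regulators and breakdown enzymes bear on both genes by role. Of 13 islet transcription factors, which include Pdx1, Mafa and Nkx6-1, 11 were tested, and 6 rose, 2 fell and 3 were not called at day 30 over day 10 (median 0.33, against 0.01 over all genes, of which 31.1% rose and 30.1% fell). At day 60 over day 30, 8 rose, 1 fell and 2 were not called (median 0.86, against −0.0026, with 30.3% of all genes higher and 31.6% lower). Relative to beta cells, 4 were higher and 6 lower at day 30 (34.5% and 39.9% of all genes), and 7 higher and 3 lower at day 60 (34.6% and 43.2% of all genes). Of 5 genes for peptide breakdown and amyloid handling, 4 were tested, their differences at day 30 over day 10 lay between −0.14 and 0.25 without a call by limma (median 0.02), and 2 rose at day 60 over day 30. With median scaling or on the unnormalized values the gain of Ide, which encodes the insulin-degrading enzyme that also cuts amylin, was called at day 30 too (0.62 in both, against 0.25).

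The genes most like Ucn3 over the 18 arrays, by Pearson correlation of log2 intensity, were Igsf1 (r = 0.985), Epb4.1l3 (0.985), Hspa2 (0.983), Magee1 (0.982) and BC066028 (0.982), and Iapp came at rank 78 (0.925). Over the 12 induced arrays Ins1 was the most like Ucn3 (0.996), before Arhgef3 (0.993), Mapre2 (0.993), Atp6ap2 (0.992) and 2310047H23Rik, now named Txndc15 (0.991). The most like Iapp over 18 arrays were Pip5k2a, now named Pip4k2a (0.994), Slc6a6 (0.981), Slc30a8 (0.981), Atp6ap2 (0.978) and Dnajc6 (0.970), with Ucn3 at rank 76. Over the 12 induced arrays they were Pip5k2a (0.995), Igsf4a, now named Cadm1 (0.994), Ttc35, now named Emc2 (0.993), Dcn (0.993) and 2700023B17Rik, now named Lsm14a (0.992), with Ucn3 at rank 431 (0.951). Dcn, a matrix proteoglycan of connective tissue, was 11.87 at day 60 but 4.51 in beta cells. The lists over 18 arrays shared 4 of 5 genes with those made without the day 60 or without the 7-month arrays. Over the induced arrays alone, 2 of 5 were shared for Ucn3 in both cases, and for Iapp 2 of 5 without day 60 and 4 of 5 without 7 months. These arrays share a time or cell type in groups of 3 and late arrays share a pair, so the coefficients describe the groups more than single arrays.

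Markers of other cell types moved over the same times. The summed signal of 10 acinar markers above the negative controls was 222030 to 228589 at day 10, 205811 to 215700 at day 30, 159053 to 167547 at day 60, 156003 to 169428 at 7 months, 4495 to 5181 in endogenous beta cells and 248913 to 255134 in acinar cells, and 10 of 10 were measured on every induced array. That sum, of signals not scaled between arrays, was lower at day 60 than at day 30, where Iapp was higher. After normalization the mean log2 intensity of these markers was 14.13 at day 30 and 13.96 at day 60. Of 6 mesenchyme markers, 1 was measured on every array at day 10 and 4 on every array at day 30 and day 60, with sums of 57.2 to 75.4 at day 10, 1291 to 1516 at day 30, 3020 to 6987 at day 60, 2516 to 6324 at 7 months and 7.14 to 9.03 in beta cells. Blood markers summed to 102 to 121 at day 10, 251 to 296 at day 30 and 941 to 7870 at day 60, the last range lying across arrays of 1 group. Macrophage markers summed to 3078 to 3182 at day 10, 1307 to 1424 at day 30, 1471 to 4605 at day 60, 1260 to 3984 at 7 months and 219 to 251 in beta cells, and were thus lower at day 30 than at day 10, where Ucn3 and Iapp were higher. Endothelial markers summed to 1125 to 1234 at day 10, 1943 to 2063 at day 30, 2831 to 3351 at day 60, 2517 to 2918 at 7 months and 385 to 438 in beta cells. Duct markers gave 3554 to 4000 at day 10, 8262 to 8515 at day 30, 2703 to 6495 at day 60, 2222 to 5516 at 7 months and 11832 to 12668 in beta cells. They did not move together. Between day 10 and day 30 the mean log2 intensity of Spp1 went from 10.55 to 12.17. Krt1-19, now named Krt19, went from 9.56 to 8.26, Krt7 from 10.12 to 9.79 and Sox9 from 6.41 to 6.39, and Cftr was not measured. Krt1-19, Sox9 and Cftr were measured on no beta cell array, where Spp1 averaged 12.92 and Krt7 11.96. The summed signal of markers of the other islet cells was 25777 to 27191 at day 10, 31229 to 32884 at day 30, 20271 to 29055 at day 60, 19536 to 26385 at 7 months and 50419 to 51500 in beta cells. The genes behind that sum differed between induced and beta cell arrays. Ghrl, the gene of ghrelin, averaged 13.76 to 14.17 (log2) over the induced times, against 4.97 in beta cells. Gcg averaged 9.58 to 12.80 against 14.56, and Sst 10.24 to 10.76 against 14.22. On acinar arrays the markers of other islet cells summed to 2597 to 3366, with means of 12.02 for Gcg and 4.82 for Ghrl. The part of other cell types in the levels of Ucn3 and Iapp was not tested.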

How the data were processed

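RNA extracted with Trizol was hybridised to Illumina MouseRef-8 v2.0 beadchips, per the labels' protocols. Per the file headers, the deposited table pairs signal intensity with detection p-value for 18118 symbols and 18 arrays. The deposited log10 values of the series matrix were the same signals for 18112 symbols. How probes were summarised to genes, and with which software and build, is not given in the sources used here. Array medians of the deposited intensities were 56.8 to 81.6, and precision is limited by 3 arrays a group.

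Signals were corrected by normexp in limma 3.58.1 (R 4.3.3) with negative controls inferred from detection p-values on the grid of 1/798, an offset of 16, quantile normalization and log2. A gene counted as measured on an array at detection p under 0.01, and 8942 genes measured on 3 or more arrays entered 1 model of 6 group means with 15 comparisons. That rule can miss bright genes: Ece1 averaged 8.20 (log2) on the acinar arrays and was measured on 0 of 3. Calls required an adjusted p below 0.05 (Benjamini-Hochberg over all tested genes, within each comparison). Where a whole group failed to measure a gene, its level is bounded by a floor of 5.04 to 6.11 (log2), given as at least N-fold. SDs are over arrays and SEs come from the model. The within-array difference was tested by exact permutation in Python 3.11.15. The model was tested on simulated data.

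The genes, lists and tests were chosen with earlier results of these data known. Named genes are Ucn3, Iapp, the tested members of the urocortin, calcitonin, processing and somatostatin lists, 9 further maturity and cargo genes and the 5 most similar genes in each set of arrays. Ide and some cell type markers are named too. Untested genes are named only as undetected. Replicate numbers paired only the late arrays: deviations from the group means correlated at 0.79 to 0.86 between day 60 and 7 months and at −0.04 to 0.07 in the other 14 pairs of groups. Symbols were matched to a RefSeq table for 17257 of 18118. Alternatives were other background corrections, an offset of 50, median scaling, the unnormalized matrix, other filters, other sets of arrays, a replicate block and leaving out each array. Leaving out a late group and the block within late arrays were added after seeing the data.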

Additional observations from a re-analysis of the deposited data

How the results depend on the processing

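The rises of Ucn3 and Iapp at day 30 over day 10 and of Iapp at day 60 over day 30, the lower Ucn3 and Iapp at day 10, the lower Iapp at day 30 and 7 months relative to beta cells, and the variation of their within-array difference over time kept their direction and call under every alternative run. Their sizes moved, over all settings, from 2.47 to 3.97 for the Ucn3 rise and from 2.40 to 3.46 for the Iapp rise at day 30, and from −4.27 to −2.76 for Ucn3 and from −5.44 to −4.65 for Iapp at day 10 minus beta cells. For the last the exact p lay between 0.0047 and 0.029 under other settings and between 0.0044 and 0.036 with 1 array left out.

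Differences near the threshold did not. Ucn3 at day 30 minus beta cells (−0.27) was called with limma's estimate of the controls (−0.29), no background correction (−0.25), an offset of 50 (−0.26), median scaling (−0.30), the unnormalized matrix (−0.22) and only both groups in the model (−0.27), and lay between −0.31 and −0.22 with 1 array left out, called without acinar array 1 (adjusted p = 0.041). Iapp at day 60 minus beta cells (−0.45) was called in the first 5 of these (−0.47, −0.44, −0.44, −0.72 and −0.69). The fit with a replicate block called it too (adjusted p = 0.025, difference −0.45). With 1 array left out it lay between −0.57 and −0.24, called without acinar array 3 (adjusted p = 0.047), day 30 array 1 (0.036) or day 60 array 2 (0.032). Ucn3 at day 60 minus day 30 (0.38) was not called with median scaling (0.044) or the matrix (0.0022), and ranged from 0.31 to 0.48 with 1 array left out, uncalled without day 30 array 2 (adjusted p = 0.088) or 3 (0.060) or day 60 array 1 (0.071) or 2 (0.10). Ucn3 at 7 months minus day 30 (0.37) turned to −0.081 and −0.16 in these settings, was uncalled with no filter (0.37, adjusted p = 0.053), and ranged from 0.28 to 0.46, uncalled without day 30 array 2 (0.098) or 3 (0.066) or 7-month array 1 (0.059) or 2 (0.13). Ucn3 minus beta cells turned to −0.25 and −0.22 at day 60 and to −0.38 and −0.39 at 7 months. Ucn3 at 7 months minus day 60 (−0.01) ranged from −0.11 to 0.077, above 0 without day 60 array 1 (0.02) or 2 (0.06) or 7-month array 3 (0.077). Iapp at day 10 minus acinar cells turned to 0.34 and 0.50. Ucn3 at day 10 minus acinar cells was uncalled with limma's estimate of the controls (0.19). Median scaling called 1 gene between 7 months and day 60, against 0. The replicate block changed no other call of the 2 genes. Why these settings differ was not tested.

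Array signals near the background limit Ucn3 in acinar cells to a bound. The choice of scaling limits any difference from beta cells of the size seen for Ucn3 after day 30, and 3 arrays a group limit the pairwise permutation tests to p = 0.10.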
